A study of Saccharomyces cerevisiae with 22 samples.

Results

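Reductive iron uptake in budding yeast is carried by a small set of genes, of which 8 were looked up here by systematic name: FET3, FTR1, FRE1, FRE2, FRE3, CCC2, ATX1 and FET4. Of these 8 genes, 5 (FET3, FTR1, FRE1, ATX1 and FET4) are named in the authors' deposited tables, with 7 of the 5195 start clusters listed there. FRE2, FRE3 and CCC2 have no line naming them and were not analysed here. A start cluster is a stretch of neighbouring transcription start positions that the authors merged into one feature. FTR1 and FET4 have 2 clusters each, of which the one with the higher mean normalized count is called the main cluster below.

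In this pathway, ferric iron is first reduced at the cell surface by metalloreductases such as Fre1, Fre2 and Fre3. The multicopper oxidase Fet3 then reoxidises the iron and passes it to the permease Ftr1, and Fet3 needs copper that the chaperone Atx1 hands to the Golgi copper pump Ccc2. Fet4 is a separate low-affinity transporter of iron and other metals. FET3, FTR1 and several other genes of the set are classical targets of the activator Aft1 under low iron, while FRE1 is also known as a target of the copper-sensing activator Mac1.

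Polyadenylated RNA of Saccharomyces cerevisiae W303 was sequenced from its 5′ ends (TL-seq) after cap removal with the enzyme Cap-Clip, in cells grown in YPD and either untreated or given 5 mM DTT, a reducing agent that breaks disulphide bonds, for 1 h. All strains lack the native SWI3 or SNF2 gene, whose products belong to the chromatin remodeller Swi/Snf, and carry an allele put back, which the labels write with ::LEU2. The wild-type strains are swi3[delta] with SWI3::LEU2 and snf2[delta] with SNF2::LEU2. The mutants are swi3[delta] with swi3-E815X::LEU2 (swi3E815X), snf2[delta] with snf2-W935R::LEU2 (snf2W935R) and snf2[delta] with snf2-Q928K::LEU2 (snf2Q928K). Each of the 10 groups of strain and treatment has 2 replicates, collected on separate days per the labels.

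A pair of control libraries that skipped the Cap-Clip step was not analysed here, so whether a cluster's RNA ends are capped was not tested. The values are in 7 tables of the authors' DESeq2 comparisons with no value per library, so errors are the standard errors (SE) of the authors' fits, and depth per library is unknown. The authors' deposited tables have sums of mean normalized counts between 5901941 and 7516016. Group means below are normalized counts derived from those tables and put on one scale. The swi3 and snf2 mutants were compared with different wild-type libraries, called the swi3 set and the snf2 set below, while the wild-type DTT table pools both sets. The sets differ for several of these genes, so values against the other set are given beside the results. SNF2 and SWI3 themselves were called in none of the 7 tables, which checks nothing for point and truncation alleles. A cluster was called at a Benjamini-Hochberg adjusted p under 0.05 in the authors' DESeq2 Wald test, and RNA per cell and number of cells cannot be told apart in bulk cultures.

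The sequences upstream of 4 of these genes are shown because their clusters changed most often, and the Aft1 element TGCACCC is in capitals. They are the 300 bases before the coding start on the gene's strand, read from the RefSeq R64 genome, which is the S288C strain and not W303. They lie at chrXIII:388522-388821 (+) for FET3, chrV:461741-462040 (-) for FTR1, chrXII:568267-568566 (+) for FRE1 and chrXIII:914539-914838 (-) for FET4.
FET3: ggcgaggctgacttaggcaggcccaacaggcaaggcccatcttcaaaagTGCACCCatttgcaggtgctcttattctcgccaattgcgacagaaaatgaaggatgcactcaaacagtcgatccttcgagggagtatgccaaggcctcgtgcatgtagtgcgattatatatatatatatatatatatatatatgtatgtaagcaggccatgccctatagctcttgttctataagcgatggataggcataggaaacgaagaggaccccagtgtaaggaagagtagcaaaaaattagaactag
FTR1: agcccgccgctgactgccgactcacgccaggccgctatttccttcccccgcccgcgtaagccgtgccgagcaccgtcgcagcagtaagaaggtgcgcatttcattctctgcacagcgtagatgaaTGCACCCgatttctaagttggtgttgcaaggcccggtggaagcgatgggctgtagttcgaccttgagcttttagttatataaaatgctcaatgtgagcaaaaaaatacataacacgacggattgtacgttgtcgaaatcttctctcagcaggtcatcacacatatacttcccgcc
FRE1: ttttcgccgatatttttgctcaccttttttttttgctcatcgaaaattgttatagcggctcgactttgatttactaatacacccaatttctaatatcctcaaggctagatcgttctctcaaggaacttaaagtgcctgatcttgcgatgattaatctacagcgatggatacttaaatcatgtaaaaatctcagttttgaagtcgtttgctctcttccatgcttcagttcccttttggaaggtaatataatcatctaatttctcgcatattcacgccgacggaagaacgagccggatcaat
FET4: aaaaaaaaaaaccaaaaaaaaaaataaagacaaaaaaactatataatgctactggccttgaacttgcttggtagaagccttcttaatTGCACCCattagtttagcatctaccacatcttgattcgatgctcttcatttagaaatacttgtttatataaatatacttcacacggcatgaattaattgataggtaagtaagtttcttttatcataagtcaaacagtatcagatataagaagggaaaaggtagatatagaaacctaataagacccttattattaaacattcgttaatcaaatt

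The letters TGCACCC, searched on both strands, begin 251 bases before the coding start of FET3, 175 bases before that of FTR1 and 213 bases before that of FET4, in each case on the gene's own strand. ATX1 has them at 116 bases and CCC2 at 290 and 242 bases, all on the other strand. FRE1, FRE2 and FRE3 have no such letters in this window. Over 6001 genes, 1.33% have TGCACCC in the same window and 19.6% its core CACCC, which every TGCACCC contains. FRE1 has TTTGCTC, the Mac1 element, 3 times on its own strand, at 286, 269 and 96 bases, and FTR1 has it 1 time on the other strand at 81 bases. TTTGCTC is in 5.28% of the windows. These are matches of letters and say nothing about binding in these cells.

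In wild-type cells, the genes of this set that were called under DTT did not share a direction. The oxidase gene FET3 fell, the internal cluster of the permease gene FTR1 and the low-affinity transporter gene FET4 rose, and FRE1 and ATX1 were not called. The FTR1 cluster at the coding start was not called either. Over the main clusters of the 5 genes, 2 were called higher and 1 lower, against 16.5% higher and 17.3% lower over all clusters. Their median log2 fold change was 0.29, beside 0.01 over all clusters. Whether these counts differ from those shares was not tested.

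In the Swi/Snf mutants, by contrast, the calls were nearly all on the lower side. Of the 5 main clusters, none was called in either direction in untreated swi3E815X (0.463% of all clusters higher, 1.35% lower), and 1 was lower with DTT (0.212% higher and 1.17% lower over all clusters). In snf2W935R, 1 was lower when untreated (background 0.945% higher, 1.79% lower) and 2 with DTT (background 2.54% higher, 2.83% lower). In snf2Q928K, 3 were lower and 1 higher when untreated (background 3.74% lower and 2.82% higher), and 3 were lower with DTT (background 7.18% lower, 7.34% higher). The higher one in untreated snf2Q928K was the internal FTR1 cluster, while the FTR1 cluster at the coding start was called lower there. The median log2 fold change over the 5 clusters was lowest in DTT-treated snf2Q928K, at -1.45, where that of all clusters was 0 to 2 decimals. The mutant tables of one set share their wild-type libraries, so their values are given side by side and are not independent.

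**Figure D1:**
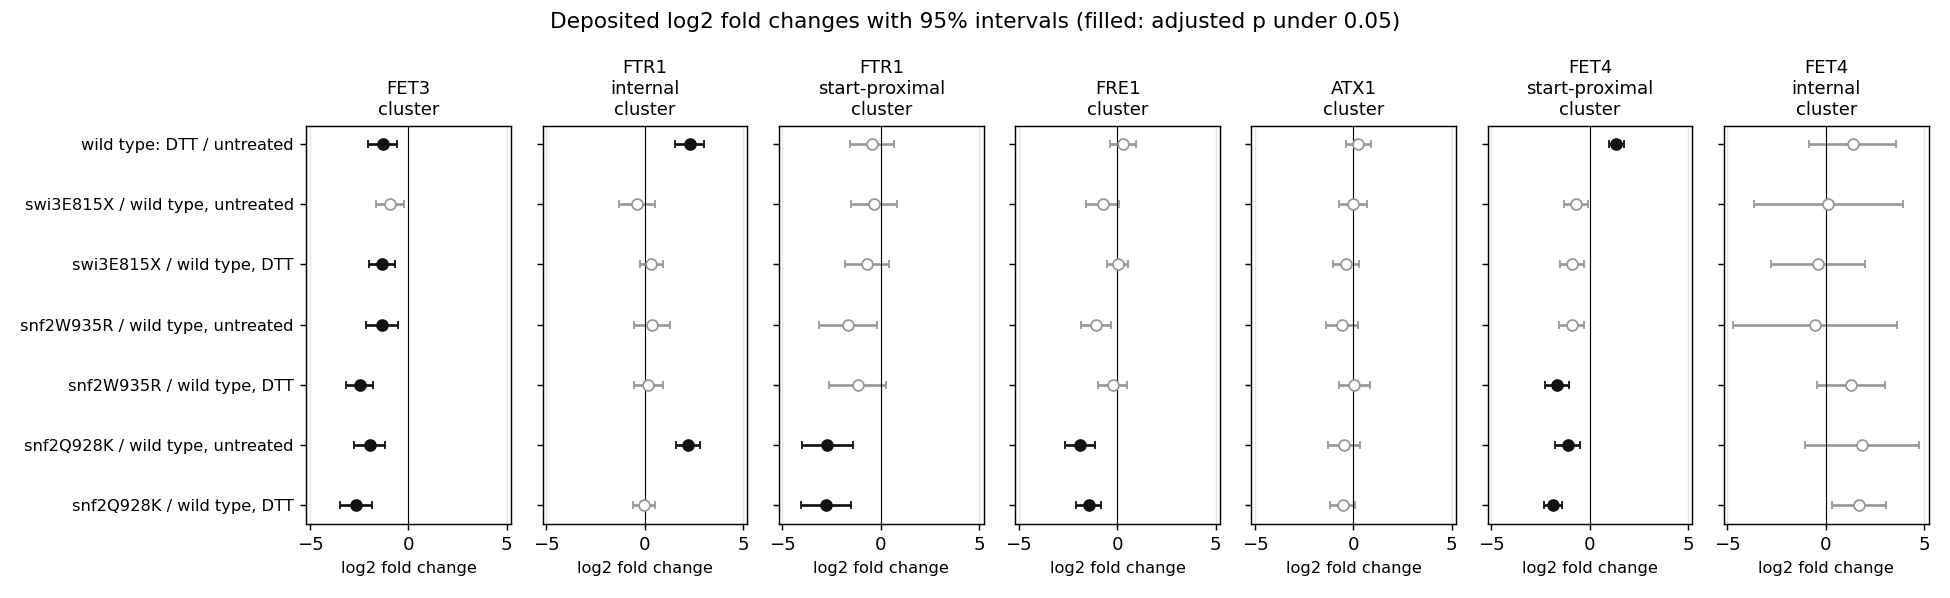
Log2 fold changes of the 7 start clusters from the authors' deposited tables (x axis), one panel per cluster and one line per comparison, with 95% intervals from the deposited SE; filled points have an adjusted p under 0.05. FET3 lies below 0 in all 7 comparisons, while the internal FTR1 cluster lies far above 0 in 2 of them, DTT in wild type and untreated snf2Q928K.

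The plot of fold changes sets the 7 clusters side by side. FET3 is the one gene whose main cluster was called in 6 of the 7 comparisons, and ATX1 was called in none.

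FRE1 (YLR214W) encodes the surface reductase that supplies ferrous iron and also reduces copper. Its cluster lies at chrXII:568413-568533 on the plus strand, 34 to 154 bases upstream of the coding region. Untreated group means were 1058 and 658 in the swi3 and snf2 wild-type sets, 636 in swi3E815X, 312 in snf2W935R and 176 in snf2Q928K. With DTT they were 1260.4, 844, 1274, 725 and 308 in the same order. The 2 snf2Q928K means are the lowest of their treatments, and swi3E815X with DTT is level with its wild type.

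In the authors' deposited table for untreated snf2Q928K, FRE1 was lower at a log2 value of -1.90 ± 0.39 (SE; DESeq2 Wald test, Benjamini-Hochberg adjusted p = 6.64e-05). With DTT the authors' deposited table gave -1.45 ± 0.32 for snf2Q928K (DESeq2 adjusted p = 0.000128). Against the other wild-type set these values were -2.58 and -2.03, both still called. In snf2W935R the authors' deposited tables gave -1.08 untreated (DESeq2 adjusted p = 0.107) and -0.22 with DTT, neither called; against the other set the untreated value was -1.76 (adjusted p = 0.000422). The difference between snf2Q928K and snf2W935R was -1.23 with DTT (95% interval -2.20 to -0.26; unadjusted p = 0.0128 and adjusted p = 1.0 over all clusters, normal test) and is not called. Neither DTT in wild type (0.29 in the authors' deposited table) nor swi3E815X (-0.73 and 0.02) gave a call.

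FET3 (YMR058W) encodes the multicopper ferroxidase. Its cluster spans 11 bases at chrXIII:388767-388777 on the plus strand, 45 to 55 bases upstream of the coding region. It is shown here because it is the narrowest of the 7 clusters, and it lies within the upstream sequence printed above.
FET3 cluster: ataggaaacga

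FET3 group means in untreated cells were 3309.5 in the swi3 wild-type set, 6582 in the snf2 set, 1719 in swi3E815X, 2586 in snf2W935R and 1690.2 in snf2Q928K. With DTT they were 1319, 2684, 516, 487 and 426 in the same order. Every DTT mean is below the untreated mean of the same strain, and every mutant mean is below both wild-type means of its treatment. The untreated mean exceeded the DTT mean by 1.33 and 1.29 on the log2 scale in the wild-type sets, by 1.74 in swi3E815X, by 2.41 in snf2W935R and by 1.99 in snf2Q928K, values of single strains that carry no test. Across the 10 groups the highest mean is 15.5-fold the lowest.

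In the authors' deposited table, FET3 in wild type fell by 1.30 ± 0.38 (log2) under DTT (DESeq2 adjusted p = 0.00334). With DTT it was lower in all 3 mutants. The authors' deposited tables gave -1.35 ± 0.34 in swi3E815X (DESeq2 adjusted p = 0.00751), -2.46 ± 0.35 in snf2W935R (2.43e-10) and -2.66 ± 0.41 in snf2Q928K (5.11e-09). These 3 calls held against the other wild-type set, at -2.38, -1.44 and -1.63. In untreated cells the authors' deposited tables called FET3 lower in snf2W935R, at -1.35 ± 0.41 (DESeq2 adjusted p = 0.0387), and in snf2Q928K, at -1.96 ± 0.40 (5.53e-05), and not in swi3E815X, at -0.95 ± 0.36 (0.214).

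The untreated FET3 calls turned on which wild-type libraries were used. The swi3 set was 1.99-fold lower than the snf2 set in untreated cells and 2.04-fold lower with DTT. Against the other set the untreated values were -0.36 in snf2W935R (adjusted p = 0.962) and -0.97 in snf2Q928K (0.154), both no longer called, and -1.94 in swi3E815X (8.52e-06), now called. Whether the mutant effect differed between DTT and untreated cells was tested directly and no mutant passed: the difference was -0.41 in swi3E815X (95% interval -1.38 to 0.56), -1.11 in snf2W935R (-2.17 to -0.06; adjusted p = 0.445, normal test over all clusters) and -0.69 in snf2Q928K (-1.81 to 0.42). Over all clusters 0.0386%, 0.869% and 1.41% passed this test in the 3 mutants. No call was made for FET3 between snf2Q928K and snf2W935R, a test passed by 0.174% of all clusters untreated and 0.289% with DTT, with 95% intervals of -1.73 to 0.50 untreated and -1.24 to 0.86 with DTT.

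**Figure D2:**
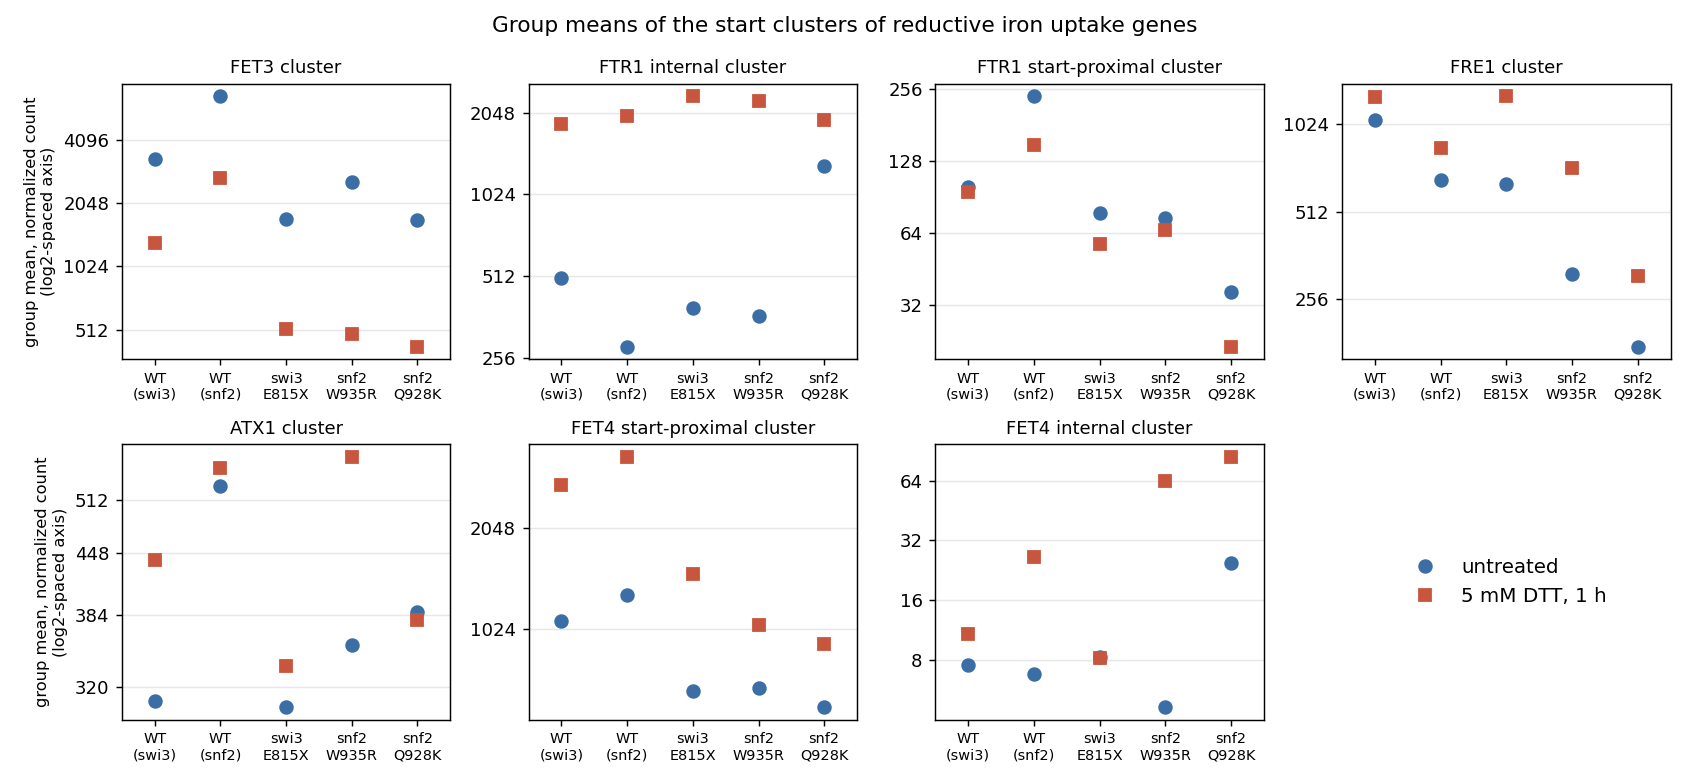
Group means in normalized counts (y axis, log2-spaced, a different range in each panel) for the 7 start clusters in the swi3 wild-type set (WT swi3), the snf2 wild-type set (WT snf2) and the 3 mutants; circles are untreated and squares 5 mM DTT for 1 h. No error bars are drawn because the tables hold no value per library. FET3 is lower with DTT in every strain, from 3309.5 to 1318.5 in the swi3 set, and FET4 start-proximal is higher with DTT in every strain.

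FTR1 (YER145C) encodes the permease that works with Fet3, and its 2 clusters lie at very different places in the gene. The start-proximal cluster spans the coding start at chrV:461714-461751 on the minus strand, from 11 bases upstream to 26 bases past the first coding base. The internal cluster, the main one, lies at chrV:461338-461439 on the same strand, 301 to 402 bases past the first base of a coding region of 1215 bases. Both are shown, with coding bases in capitals, because the 2 clusters moved apart.
FTR1 start-proximal cluster: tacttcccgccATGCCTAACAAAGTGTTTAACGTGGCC
FTR1 internal cluster: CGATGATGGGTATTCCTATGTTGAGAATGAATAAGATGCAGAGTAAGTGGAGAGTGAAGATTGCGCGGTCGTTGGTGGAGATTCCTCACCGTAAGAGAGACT

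Downstream of the internal cluster, the first ATG is base 434 of the coding region, out of frame, and opens a frame of 11 codons. The first ATG in the FTR1 frame past the cluster is base 439, which is codon 147 of 404. The cluster itself also holds ATGs in the FTR1 frame, near its first bases. An RNA that begins before those carries in-frame ATGs earlier than codon 147. Any RNA that begins in the internal cluster lacks the annotated start codon. From codon 147 to the end 258 codons remain. Whether such an RNA is translated was not measured.

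**Figure D3:**
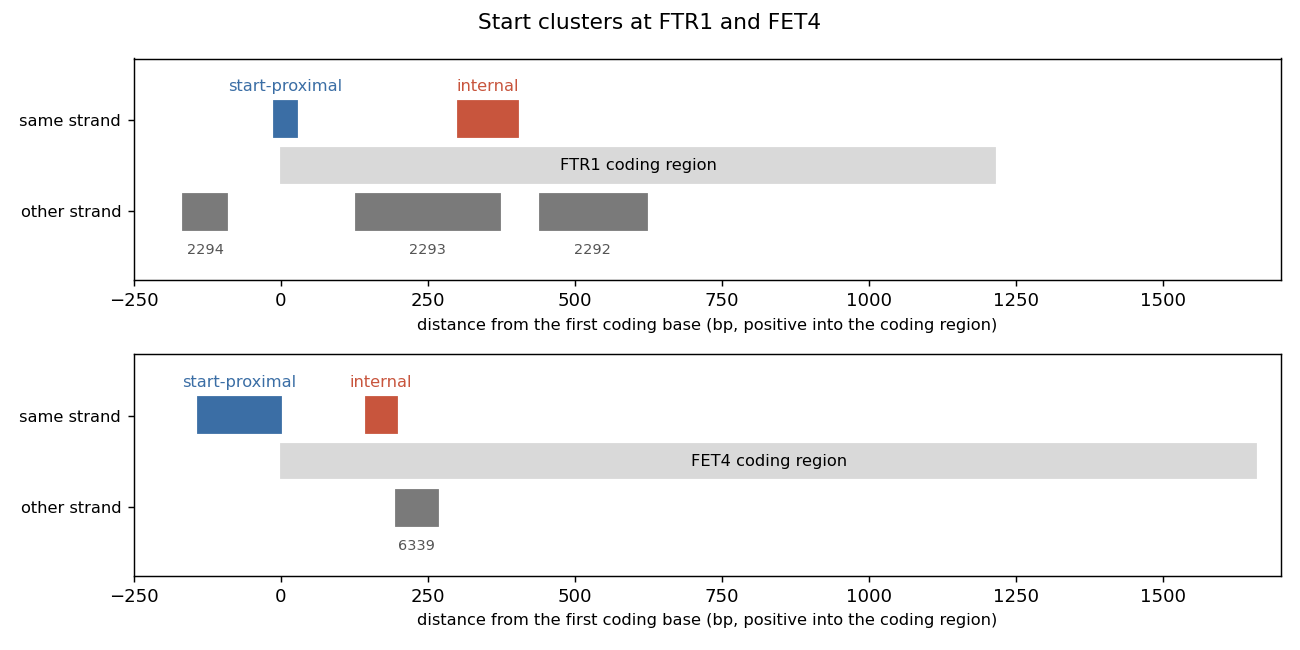
Positions of the authors' start clusters at FTR1 (top) and FET4 (bottom), as distance in bases from the first coding base (x axis, positive into the coding region), with clusters on the gene's strand above the coding region and clusters on the other strand, numbered as in the tables, below it. The internal FTR1 cluster begins 301 bases into the coding region, and that of FET4 begins 144 bases into it.

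For the internal FTR1 cluster, untreated group means were 506 in the swi3 wild-type set, 282 in the snf2 set, 392 in swi3E815X, 366 in snf2W935R and 1304 in snf2Q928K. With DTT they were 1861, 1984, 2355.5, 2255 and 1932. The untreated snf2Q928K mean stands above all other untreated means, and the DTT means of all strains lie close together. For the start-proximal cluster the untreated means were 99.9, 239, 77.8, 74.3 and 36.2 in the same order, and the DTT means 95.1, 150.0, 57.8, 66.2 and 21.5. Here snf2Q928K is the lowest of both treatments.

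In the authors' deposited table, the internal cluster rose under DTT in wild type by 2.28 ± 0.37 (log2; DESeq2 adjusted p = 1.01e-08), and the means of the swi3 and snf2 sets taken alone gave 1.88 and 2.81. It was also higher in untreated snf2Q928K than in wild type, at 2.21 ± 0.32 in the authors' deposited table (DESeq2 adjusted p = 1.69e-09), and at 1.36 against the other wild-type set (adjusted p = 0.00104). With DTT the authors' deposited table gave -0.04 ± 0.29 for snf2Q928K (DESeq2 adjusted p = 0.959). The effect of snf2Q928K was thus smaller with DTT than without, by a difference of -2.25 ± 0.43 (95% interval -3.10 to -1.40; adjusted p = 0.000148, normal test with Benjamini-Hochberg over all clusters), against the background of 1.41%. This call was lost against the other wild-type set, at -1.31 (adjusted p = 0.124). The internal cluster was not called in swi3E815X (-0.37 and 0.34 in the authors' deposited tables) or snf2W935R (0.37 and 0.19), and the untreated difference of 1.83 between snf2Q928K and snf2W935R (95% interval 0.72 to 2.95) did not pass over all clusters (adjusted p = 0.358).

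The start-proximal cluster was lower in snf2Q928K under both treatments. The authors' deposited tables gave -2.72 ± 0.66 untreated (DESeq2 adjusted p = 0.00162) and -2.80 ± 0.65 with DTT (0.000309). Against the other wild-type set these were -1.46 (adjusted p = 0.22, no longer called) and -2.15 (0.0127). DTT in wild type gave -0.47 in the authors' deposited table and was not called, and the values of swi3E815X (-0.36 and -0.72) and snf2W935R (-1.69 and -1.18) were not called either.

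Because the counts are of 5′ ends, the 2 clusters of a gene can be set against each other without regard to length. The start-proximal cluster held 45.9% of the FTR1 sum of means in the untreated snf2 wild-type set but 16.5% in the swi3 set, 16.6% in swi3E815X, 16.9% in snf2W935R and 2.70% in snf2Q928K. With DTT the share was 4.86% and 7.03% in the wild-type sets, 2.39% in swi3E815X, 2.85% in snf2W935R and 1.10% in snf2Q928K. The share is thus lower with DTT in every strain and lowest in snf2Q928K under each treatment, while in untreated cells swi3E815X and snf2W935R are level with the swi3 wild-type set and the snf2 set stands above all.

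**Figure D4:**
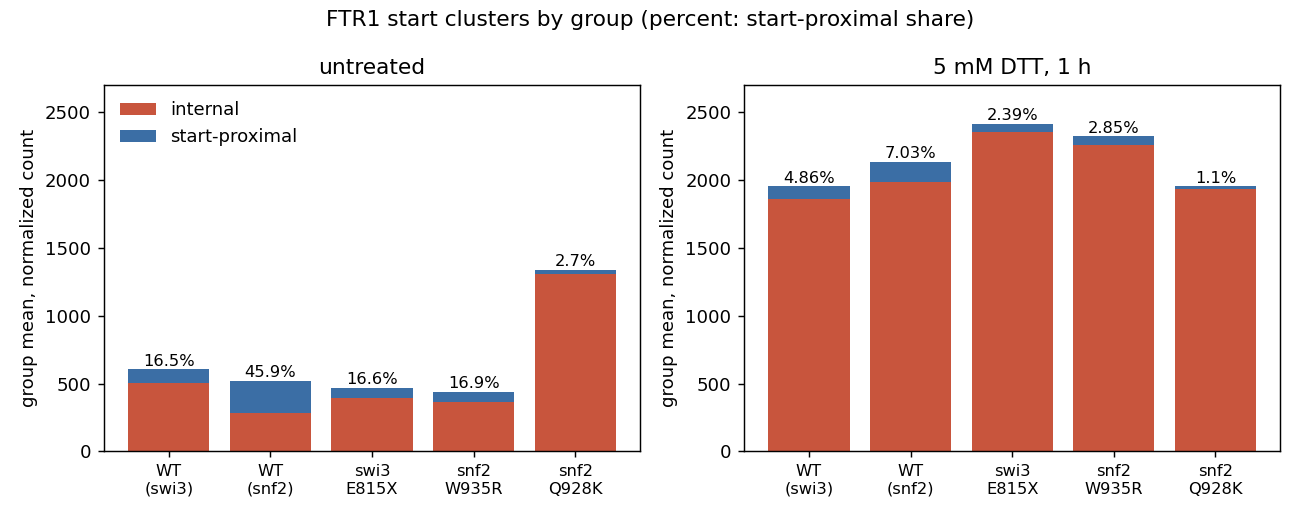
Stacked group means in normalized counts (y axis from 0) of the internal and start-proximal FTR1 clusters, untreated at left and with 5 mM DTT at right; the percentage above each bar is the start-proximal share of the sum. In untreated cells the share is 45.9% in the snf2 wild-type set and 2.70% in snf2Q928K, and with DTT no group exceeds 7.03%.

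The difference between the log2 fold changes of the 2 clusters of a gene was tested over the 472 to 479 genes with at least 2 clusters on their strand, a test chosen after the FTR1 values were seen. Both clusters of a gene come from the same libraries. The test takes their errors as independent, which could not be checked without values per library. For FTR1, start-proximal minus internal, the difference was -2.75 ± 0.68 for DTT in wild type (adjusted p = 0.000574, normal test), where 17.2% of the genes were called. It was -4.93 ± 0.74 in untreated snf2Q928K (adjusted p = 3.79e-09; 8.61% of genes called) and -2.76 ± 0.71 in snf2Q928K with DTT (0.00126; 15.2% called). Against the other wild-type set the snf2Q928K values were -2.83 (adjusted p = 0.00314) and -2.20 (0.0185), both still called. The other 4 mutant tables, where 1.69% to 7.31% of genes were called (1.69% and 3.34% in swi3E815X, 4.41% and 7.31% in snf2W935R, untreated and with DTT), gave no call for FTR1, with values from -2.06 in untreated snf2W935R (adjusted p = 0.268) to 0.01 in untreated swi3E815X.

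RNA from the other strand was also present at FTR1. The authors list 3 clusters there without a gene name, numbered 2294, 2293 and 2292, and they are described after their values were seen. Cluster 2294, on the plus strand 92 to 166 bases upstream of the FTR1 coding start, rose with DTT in wild type by 2.70 ± 0.37 (log2, authors' deposited table; DESeq2 adjusted p = 1.21e-11) and was lower in DTT-treated snf2Q928K, at -1.48 ± 0.36 (0.000927). Cluster 2293, which overlaps the internal FTR1 cluster on the other strand, fell by 0.98 ± 0.39 with DTT in wild type in the authors' deposited table (DESeq2 adjusted p = 0.0353). It was also lower in untreated snf2Q928K, at -1.46 ± 0.44 in the authors' deposited table (DESeq2 adjusted p = 0.0202), where the internal cluster was higher, and in DTT-treated snf2W935R, at -2.05 ± 0.63 (0.0247). Cluster 2292 was called in none of the 7 tables. The calls in the mutants held against the other wild-type set, at -1.56 for 2294 and at -2.02 and -2.65 for 2293.

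ATX1 (YNL259C) encodes the copper chaperone that feeds the pathway through Ccc2. Its cluster lies at chrXIV:157871-157895 on the minus strand, 6 to 30 bases upstream of the coding region. Untreated group means were 309 in the swi3 wild-type set, 531 in the snf2 set, 304 in swi3E815X, 356 in snf2W935R and 387 in snf2Q928K, and with DTT they were 441, 555, 337, 571 and 379. The highest mean is 1.88-fold the lowest, the narrowest range of the 7 clusters. No comparison called ATX1: the authors' deposited tables gave 0.25 for DTT in wild type and values from -0.58 to 0.04 in the mutants.

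FET4 (YMR319C) encodes the low-affinity transporter. Its start-proximal cluster, the main one, spans chrXIII:914539-914679 on the minus strand, the 141 bases directly before the coding region. Untreated group means were 1082 in the swi3 wild-type set, 1293 in the snf2 set, 669 in swi3E815X, 681 in snf2W935R and 598.5 in snf2Q928K. With DTT they were 2759, 3348.5, 1492, 1057 and 922. DTT means exceed untreated means in every strain, and the mutants lie below both wild-type sets in both treatments. The DTT mean was 2.55-fold and 2.59-fold the untreated one in the wild-type sets, 2.23-fold in swi3E815X, 1.55-fold in snf2W935R and 1.54-fold in snf2Q928K, the mutant folds again without a test of their own.

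In the authors' deposited table, FET4 start-proximal rose under DTT in wild type by 1.36 ± 0.20 (log2; DESeq2 adjusted p = 5.41e-10). With DTT it was lower in snf2W935R, at -1.66 ± 0.32, and in snf2Q928K, at -1.86 ± 0.24 (authors' deposited tables; DESeq2 adjusted p = 1.59e-05 and 1.66e-12). Both calls held against the other wild-type set, at -1.38 and -1.58. In untreated snf2Q928K the authors' deposited table gave -1.11 ± 0.33 (DESeq2 adjusted p = 0.0166), and -0.85 (adjusted p = 0.12) against the other set, where the call was lost. In swi3E815X the values were -0.69 untreated and -0.89 with DTT in the authors' deposited tables, not called, and -0.95 (adjusted p = 0.0404) and -1.17 (0.00514) against the other set, called. The difference of the mutant effects between DTT and untreated cells was not called in any mutant, at -0.19 in swi3E815X, -0.74 in snf2W935R and -0.75 in snf2Q928K (95% interval -1.55 to 0.06).

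FET4 also has an internal cluster of few counts, at chrXIII:914342-914394, 144 to 196 bases into the coding region. It is shown, all coding, because the 2 FET4 clusters moved apart in mutant tables.
FET4 internal cluster: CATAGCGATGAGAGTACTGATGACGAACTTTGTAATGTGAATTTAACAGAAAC

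Its group means lay between 4.64 and 24.6 in untreated cells. With DTT they were 10.8 and 26.3 in the wild-type sets, 8.22 in swi3E815X, 63.4 in snf2W935R and 84.1 in snf2Q928K, so that the 2 snf2 mutants were highest. The cluster itself was called in none of the 7 tables, with 1.68 ± 0.69 in DTT-treated snf2Q928K (authors' deposited table, DESeq2 adjusted p = 0.0908). Against the other wild-type set that value was 2.96 and called (adjusted p = 0.000535, normal test). That call keeps the SE of 0.69. In DTT-treated swi3E815X against the swi3 set, where the mean was 9.66, the deposited SE was 1.22, so the call may be overstated. Start-proximal minus internal, the FET4 clusters moved apart by -2.94 ± 0.93 in DTT-treated snf2W935R (adjusted p = 0.029, normal test; 7.31% of genes called) and by -3.54 ± 0.74 in DTT-treated snf2Q928K (3.27e-05). Against the other wild-type set these values were -3.94 and -4.54, both still called, with the deposited SE and thus the same limit. Untreated snf2Q928K had a value of similar size and wider error, -2.96 ± 1.52, which was not called (adjusted p = 0.336). The start-proximal share of FET4 was 99.6% and 99.2% in the DTT-treated swi3 and snf2 wild-type sets, 94.3% in snf2W935R and 91.6% in snf2Q928K. Untreated, it was 99.3% and 99.5% in the wild-type sets and 96.0% in snf2Q928K. The first ATG after the internal cluster is base 379, in frame, at codon 127 of 552. The cluster itself holds ATGs that are out of frame, so an RNA that begins before them meets those first.

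On the other strand, cluster 6339 shares 1 base with the internal FET4 cluster and lies further into the gene, from 196 to 267 bases past the first coding base. This cluster, also chosen after its values were seen, rose with DTT in wild type by 1.47 ± 0.37 (authors' deposited table; DESeq2 adjusted p = 0.000541). With DTT it was lower in all 3 mutants in the authors' deposited tables, at -2.26 ± 0.41 in swi3E815X, -3.02 ± 0.59 in snf2W935R and -2.57 ± 0.47 in snf2Q928K (DESeq2 adjusted p = 6.9e-06, 2.4e-05 and 2.45e-06), and all 3 calls held against the other wild-type set. The start-proximal FET4 cluster and this one on the other strand were thus both higher with DTT in wild type and both lower in the DTT-treated snf2 mutants.

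By the likeness of log2 group means over the 10 groups, among 2940 clusters, FET3 was most like LAG1 (Pearson r = 0.965), MRH1 (0.954), CHO2 (0.953), OAC1 (0.950) and YJR015W (0.936). FET4 was most like PNC1 (0.968), FMN1 (0.954), AKR1 (0.953), FLC1 (0.945) and GLG1 (0.936). These values describe 10 means that share wild-type libraries and scaling, and neither list holds another gene of the set.

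Other genes of iron and metal handling were counted in 8 lists, of which 45 of 61 genes were measured. In wild type, DTT raised 16 of the 45 and lowered 5. In the mutants the calls were mostly lower. They were 2 lower and none higher in untreated swi3E815X, and 6 lower and none higher with DTT. In snf2W935R there were 8 lower and none higher untreated, and 11 lower and 2 higher with DTT. In snf2Q928K there were 10 lower and 1 higher untreated, and 14 lower and 5 higher with DTT. The backgrounds are those given above, and the median log2 fold change over the 45 genes lay between -0.37 and -0.07 in the mutant tables. Lower calls against the other wild-type set were 6 and 11 in swi3E815X, 4 and 9 in snf2W935R, and 7 and 11 in snf2Q928K, untreated and with DTT. The share of all clusters called against the other set is not given here. Whether these counts differ from that share therefore cannot be told.

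Siderophore uptake is another route for iron. Of its 5 measured genes, 3 rose with DTT in wild type, where FET3 fell and 16.5% of all clusters were called higher. None was lower in untreated swi3E815X (1.35% of all clusters lower) and 3 with DTT (1.17%). Lower calls, untreated and with DTT, were 4 and 5 in snf2W935R (1.79% and 2.83%), and 3 and 5 in snf2Q928K (3.74% and 7.18%). Lower calls of this list against the other set were 3 and 5 in swi3E815X, 3 and 5 in snf2W935R, and 2 and 5 in snf2Q928K, again without a background. ENB1, an enterobactin transporter, had group means of 270.6 and 435.0 in the untreated wild-type sets and 1156 and 1703 with DTT, but 6.67 and 11.3 in snf2Q928K. In the authors' deposited table for snf2Q928K with DTT, ENB1 was at -7.23 ± 0.38 and SIT1, a ferrioxamine B transporter, at -6.74 ± 0.43 (DESeq2 adjusted p = 5.02e-77 and 2.47e-52). Both calls held against the other set, at -6.67 and -5.63. The cell wall mannoprotein gene FIT2 was lower in 5 of the 6 mutant tables, and its untreated mean was 200.1 in the swi3 wild-type set and 729.7 in the snf2 set. Its untreated calls in snf2W935R and snf2Q928K were lost against the other set, at -1.40 (adjusted p = 0.0762) and -0.53 (0.615), while untreated swi3E815X was called there, so that 3 of the 5 tables were called either way.

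AFT1, which encodes the activator of this pathway, was lower in all 6 mutant tables. Its group means were 57.7 and 85.2 in the untreated wild-type sets and 81.1 and 101.5 with DTT, against 6.20, 7.16 and 4.22 in the untreated mutants and 13.7, 11.6 and 3.78 in the DTT-treated ones. No mutant mean reaches a wild-type mean of either set. The authors' deposited tables gave log2 fold changes from -2.56 ± 0.64 in DTT-treated swi3E815X (DESeq2 adjusted p = 0.00758) to -4.74 ± 0.85 in DTT-treated snf2Q928K (9.33e-07). The untreated swi3E815X value of -3.22 ± 0.96 was nearest the threshold (authors' deposited table; DESeq2 adjusted p = 0.0449). Of the 6 calls, 5 held against the other wild-type set, and that in untreated snf2W935R was lost, at -3.01 (adjusted p = 0.125). TIS11, which promotes decay of messenger RNAs in iron shortage, was lower in 5 of the 6 mutant tables, and its untreated mean was 17.7 in the swi3 wild-type set and 125.7 in the snf2 set. Both untreated snf2 calls were lost against the other set, at -3.50 in snf2W935R (adjusted p = 0.0711) and -0.36 in snf2Q928K (0.906), which left the 3 DTT-treated tables. FTH1, FET5 and SMF3, which move iron out of the vacuole, and MRS4, a mitochondrial iron carrier, belong to a list of 7 genes. Of these 7, 4 rose and 1 fell with DTT in wild type (16.5% higher and 17.3% lower over all clusters). In that list 3 genes (MRS4, FTH1 and FET5) were lower in DTT-treated snf2Q928K (7.18% of all clusters lower) and 1 (FET5) in DTT-treated snf2W935R (2.83%). None of these 4 calls held against the other set.

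**Figure D5:**
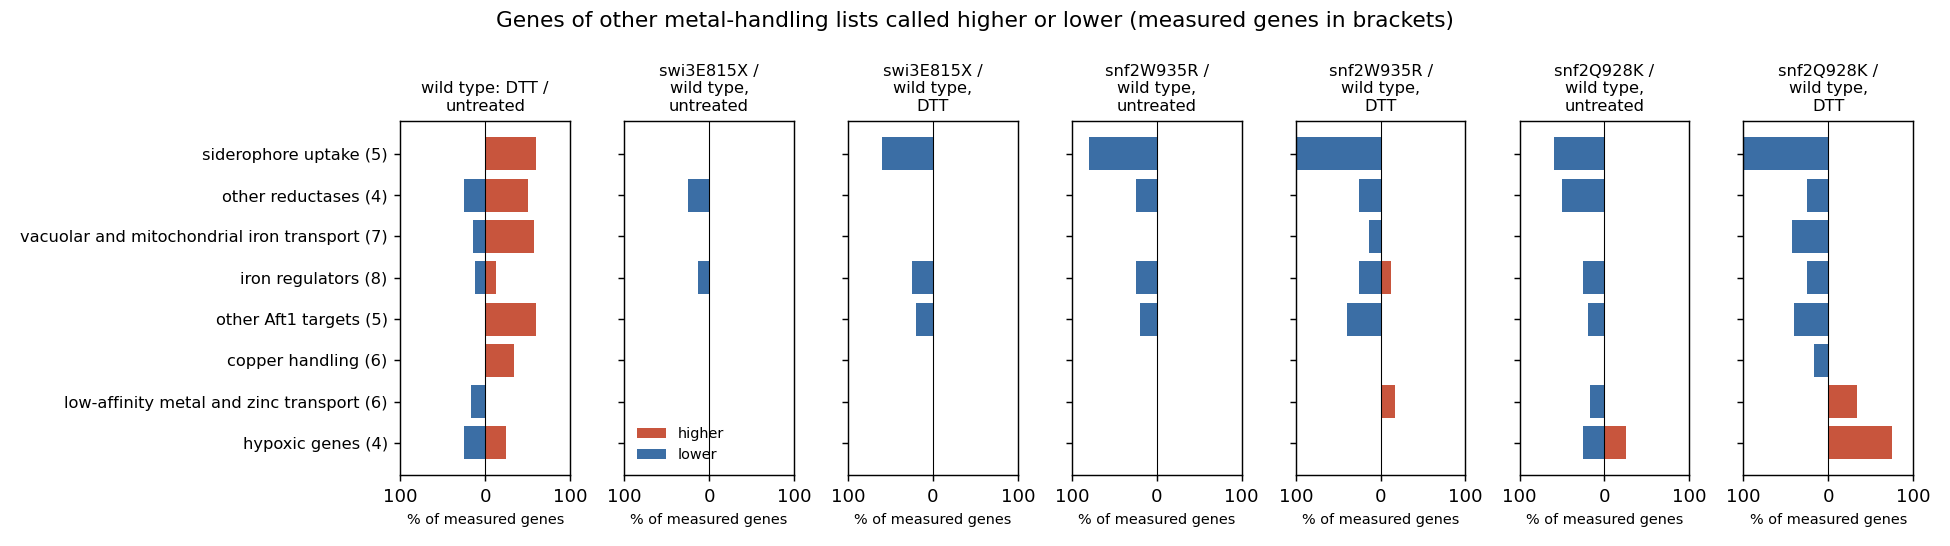
Percentage of the measured genes of each of 8 metal-handling lists (number measured in brackets) called higher (right) or lower (left) at an adjusted p under 0.05 in each of the authors' 7 comparisons (one panel each). All 5 measured siderophore uptake genes are lower in DTT-treated snf2W935R and snf2Q928K, and the copper list has 1 gene called lower in the 6 mutant tables.

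Of the 6 measured genes of copper handling, 2 rose with DTT in wild type, where 16.5% of all clusters were called higher. Among them was CTR1, the high-affinity copper importer, by 0.96 ± 0.21 (log2, authors' deposited table, DESeq2 adjusted p = 4.82e-05). Over the authors' 6 mutant tables the only copper call was SOD1 in DTT-treated snf2Q928K, which was lower, at -0.65 ± 0.23 in the authors' deposited table (DESeq2 adjusted p = 0.0426). SOD1 was still called against the other wild-type set, where CCS1 was also lower in untreated snf2Q928K and CUP2 higher in untreated swi3E815X. The 4 measured genes of the hypoxic list (HEM13, ANB1, ROX1 and OLE1) kept no single direction over the comparisons. In DTT-treated snf2Q928K, however, none of the 4 had a log2 fold change below 0 (median 1.58). In the authors' deposited tables HEM13, ANB1 and ROX1 were higher in DTT-treated snf2Q928K, where ANB1 was lost against the other set, at 0.36 (adjusted p = 0.815). In untreated snf2Q928K the authors' deposited table had OLE1 higher, at 2.15, and ANB1 lower, at -4.18 (DESeq2 adjusted p = 3.63e-11 and 0.0229). DTT in wild type gave 0.74 for HEM13 and -1.80 for ROX1 in the authors' deposited table (DESeq2 adjusted p = 0.0247 and 4.1e-05). No test compared one list with another.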

How the data were processed

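TL-seq libraries of 5 genotypes, untreated or with 5 mM DTT for 1 h, enter the comparisons with 2 replicates per group. Per the submitters' processing notes, cutadapt, HISAT2 and DESeq2 were used with sacCer3 (R64), with versions not given in the sources used here. The authors deposited 7 comparison tables, 1 line per consensus start cluster, holding per the file headers a mean normalized count (a signal scaled by the authors), a log2 fold change with its SE, a Wald statistic (a score computed by the authors), and p-values. Recalculation gave the deposited adjusted p-values as Benjamini-Hochberg over all clusters with a p, to within 0.000793. Lines without values (2 per file) and, for the mutants, 1 stray line per file were not used.

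Group means were computed here from the mean normalized count and the log2 fold change, assuming arms of equal size, and scaled to the wild-type table. After scaling, its arms matched the mean of the 2 wild-type sets with a robust SD of 0.00198 (untreated) and 0.00163 (DTT) on the log2 scale over 3316 clusters, while the sets differed from each other by 0.575 and 0.392. Which wild-type strain forms which set is not stated, and the means assume that each set holds 2 libraries per arm. Calls use an adjusted p under 0.05. Differences between tables were divided by an SE that combines both deposited SEs in quadrature and referred to the normal distribution (two-sided), and their p-values were adjusted by Benjamini-Hochberg over all clusters, or over genes with at least 2 clusters for the test within a gene. Values against the other wild-type set, an alternative chosen after seeing the data, use the deposited SE. That SE can be too small where the other set has fewer counts. Between snf2Q928K and snf2W935R the shared wild type makes this test conservative. On simulated data with a log2 difference of 2, it recovered for the DTT effect 40.5% of changed clusters in swi3E815X (5182 clusters), 27.5% in snf2W935R (5181) and 37.0% in snf2Q928K (5185). A simulated test within a gene recovered 10.0% in untreated snf2Q928K (475 genes). It paired the first 2 clusters listed for a gene, whatever their strand. The reported test pairs the 2 with the highest counts on the gene's strand, so its recovery can differ.

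The genes and lists were chosen with earlier results of these data known. All genes of the set are named, with at most 3 called genes per list and table by largest log2 fold change, and the 5 clusters most like FET3 and FET4 among those with a mean of at least 50. The rule also gives ARN2, FIT3, FRE4, FRE6, FRE7, GRX4, HMX1, ISU2, BNA2, ZRT1, ZRT2, ZRC1 and LSO1, which are not described. Among them FIT3 and HMX1 were called lower in 4 of the 6 mutant tables, and ARN2, FRE4, FRE7 and LSO1 in 3. ZRT1 was lower in 1 and higher in 2, and GRX4 and ZRT2 were higher in 1. Against the other wild-type set, all lower calls held for FIT3, ARN2 and FRE7. For HMX1, FRE4 and LSO1 2 held, and for ZRT1 none. LSO1 had untreated means near 0. Alternatives were a threshold of 0.01, a minimum mean of 10, main clusters only, every cluster counted, 10 added to each mean, and the other wild-type set. Sequences are from RefSeq R64. Python 3.11.15, pandas 2.3.3, numpy 2.4.6, scipy 1.17.1 and matplotlib 3.10.9 were used.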

Additional observations from a re-analysis of the deposited data

Results flagged for a closer look

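The internal FTR1 cluster in snf2Q928K is the result of the set whose mutant effect differed between treatments by a direct test. The effect with DTT minus the effect in untreated cells was -2.25 on the log2 scale (SE 0.43; adjusted p = 0.000148, normal test with Benjamini-Hochberg over all clusters). The DTT mean was 1.48-fold the untreated mean in snf2Q928K and 7.03-fold in the wild-type libraries of the same tables, but 3.67-fold in the other wild-type libraries. Against those other libraries the difference was -1.31 and not called (adjusted p = 0.124). The part of the wild-type libraries in the result was not tested further.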

How the results depend on the processing

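Counts of called genes for 12 comparisons were recomputed under 108 settings, of which 104 gave a count within 1.5 times the reported one. The other 4 were counts of lower genes. With a threshold of 0.01 the count in untreated snf2W935R went from 1 to 0. Against the other wild-type set it went from 0 to 2 in untreated swi3E815X, from 1 to 2 in DTT-treated swi3E815X and from 3 to 1 in untreated snf2Q928K. The share of all clusters called against that set is not given beside these counts. For single values, 173 further settings were run, and adding 10 to each mean moved none of the 49 values by more than 1 SE. Comparison with the other wild-type set and the minimum mean within a gene were chosen after seeing the data. Over the 8 lists, their total and 6 mutant tables, 27 of 108 counts of higher or lower genes changed by more than 1.5 times against the other set. Against it 17 values that were not called changed sign. They were the untreated values of FTR1 internal in swi3E815X (0.47) and snf2W935R (-0.47), of ATX1 in snf2W935R (0.20) and snf2Q928K (0.33) and of cluster 2292 in swi3E815X (0.84) and snf2Q928K (-0.84), and FTR1 internal in DTT-treated snf2Q928K (0.05). They were also the contrast between the FTR1 clusters in untreated swi3E815X (-2.09) and snf2W935R (0.04) and between the FET4 clusters in DTT-treated swi3E815X (0.51) and untreated snf2W935R (0.03). The rest were the DTT minus untreated effects of FTR1 internal (-0.23), FTR1 start-proximal (0.24) and ATX1 (0.08) in swi3E815X, FTR1 internal (0.75) and FTR1 start-proximal (-0.10) in snf2W935R, and FET4 internal (1.26) in snf2Q928K. The cause was not tested. No paired analysis was possible because the tables hold comparisons and no column per library, so a replicate could not be left out either, although the labels put replicates on separate days. Depth per library is unknown, and the FET4 internal cluster, with untreated means under 25, has the widest intervals.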
